A study of Mus musculus with 6 samples.

Results

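The 9 genes described here encode proteins of central nervous system myelin or are used by mature oligodendrocytes to make it, and they were measured in tumors of a mouse glioblastoma (GBM) line grown in the brains of WT or *Esm1* KO hosts. *Mbp*, *Mog*, *Mag*, *Mobp*, *Cnp*, *Mal*, *Cldn11*, *Opalin* and *Ugt8a* were chosen by name, and all 9 were found among the 16729 genes of the deposited table. *Esm1* encodes Endocan, a proteoglycan secreted by blood vessel cells, and the comparison asked how its absence from the host changes a tumor. The line mG7080 is a single gliomasphere culture of murine origin, and 500000 of its cells were injected intracranially into C57BL/6 hosts (C57BL/6J in the methods) that were 6 to 8 weeks old by the methods. The hosts, not the injected cells, carried the *Esm1* deletion, and host age and the number of injected cells were given alike for both groups. By the methods, the *Esm1* KO mice were a gift of another laboratory, WT mice were purchased, and hosts were killed on endpoint symptoms. RNA came from whole tumor tissue, so that injected cells and host brain contributed to the same library. Each group had 3 libraries, numbered WT 1 to WT 3 and KO 1 to KO 3 after their titles, which the study counts as mice.

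Myelin is the stacked membrane that oligodendrocytes wrap around axons, and it lets impulses jump between the gaps of the sheath. Oligodendrocytes arise from dividing precursors that express *Pdgfra* and *Cspg4*, pass through a committed stage marked by *Gpr17* and *Bcas1*, and then switch on the compact myelin proteins under the transcription factors Sox10 and Myrf. Many gliomas express genes of the precursor stage, whereas the compact myelin genes mark mature cells.

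Promoter sequence was examined because 8 of the 9 genes varied together between libraries and *Cnp* did not. The bases before the start of transcription were taken from RefSeq (GRCm38.p6), in which 8 members have an entry. In the 250 bases before each of 32851 mouse transcription starts, ACAAAG, a core that Sox proteins can bind, was found on either strand at 16.5% of starts, and CTGGCAC or CTGGTAC, letters taken for Myrf, at 5.93%. The window of *Mobp* held 6 matches to ACAAAG, and it was the only 1 of the 32851 windows with 6 or more. *Cnp*, *Mag* and *Opalin* each had 1 such match. *Cnp*, *Mag* and *Mog* each had 1 match to the Myrf letters, *Mag* being searched at 3 starts, and *Mal*, *Cldn11* and *Ugt8a* had neither. No match overlaps another in these windows. The sequences below leave out bases that GENCODE places inside the gene, which shortens *Mobp* and *Cnp* to 215 bases. They are *Mobp*, for its repeated Sox letters, *Mog*, the gene closest to the other members in its levels, and *Cnp*, the gene farthest from them. Capitals mark the matches, on whichever strand they lie (CTTTGT and GTACCAG are matches on the other strand), and a match is a description of letters and not a binding site.
*Mobp*, chr9:120149492-120149706, plus strand: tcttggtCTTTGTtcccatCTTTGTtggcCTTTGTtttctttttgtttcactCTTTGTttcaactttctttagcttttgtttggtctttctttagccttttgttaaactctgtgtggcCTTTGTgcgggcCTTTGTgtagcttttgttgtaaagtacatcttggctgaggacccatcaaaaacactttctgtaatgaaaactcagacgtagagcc
*Mog*, chr17:37023399-37023648, minus strand: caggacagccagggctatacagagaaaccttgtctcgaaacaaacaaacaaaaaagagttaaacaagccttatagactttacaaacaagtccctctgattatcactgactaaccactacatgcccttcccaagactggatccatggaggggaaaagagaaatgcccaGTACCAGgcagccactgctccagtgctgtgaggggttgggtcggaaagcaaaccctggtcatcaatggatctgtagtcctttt
*Cnp*, chr11:100574689-100574903, plus strand: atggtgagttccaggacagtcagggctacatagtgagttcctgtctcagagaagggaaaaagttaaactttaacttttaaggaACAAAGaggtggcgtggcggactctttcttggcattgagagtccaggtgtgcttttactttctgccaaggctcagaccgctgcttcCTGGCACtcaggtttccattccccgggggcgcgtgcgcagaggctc

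*Esm1* itself was counted first, as a check of the labels. Because the injected cells did not carry the deletion, its reads need not come from the host, and the check cannot decide a host's genotype. It had 1, 24 and 4 reads in KO 1, KO 2 and KO 3, against 25, 21 and 82 reads in WT 1, WT 2 and WT 3. In the library labelled KO 2 the *Esm1* count was thus at the level of the lower WT libraries. The first principal component of the genes that passed the count filter held 84.5% of the variance. On it, the library labelled KO 2 lay at 34.9, among the WT libraries (18.8 to 88.0). KO 1 and KO 3 lay apart, at -88.6 and -122. Results are therefore given over all 6 libraries, as labelled, and without the library labelled KO 2. The second choice rests on these same counts. Leaving out a library that lies among the other group favors separation of the groups. The calls without it, 24.5% of genes higher and 28.3% lower against 0 over all 6, therefore depend partly on that choice. Library totals ran from 17632070 to 22241832 counted reads, and 1 read was worth 0.0441 to 0.0568 CPM (counts scaled to library size, with TMM factors that keep a few very high genes from setting the scale).

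Levels were compared between genes per transcript length, as FPKM (reads scaled to transcript length and library size) from the authors. *Mbp* stood first in all 6 libraries, at a mean of 447 ± 221 FPKM in KO and 209 ± 102 in WT tumors (SD, n = 3). *Cnp* (151 ± 47.7 in KO, 132 ± 27.4 in WT) and *Mobp* (179 ± 78.3 and 96.2 ± 62.5) came next, and each lay above the other in 3 of 6 libraries. *Mal*, *Mag* and *Cldn11* followed with means of 50.4, 49.2 and 44.1 FPKM over all libraries, *Mal* above *Mag* in 4 of 6 libraries and *Mag* above *Cldn11* in 5. Below them were *Mog* (20.7), *Opalin* (16.2) and *Ugt8a* (9.33), and these kept their order in all 6 libraries. All 9 were detected in every library, with at least 104 reads for each.

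All 9 myelin genes had a higher mean in the KO than in the WT tumors. The median difference of the 9 was 1.04 on the log2 scale. The libraries within each group differed widely, and no member passed the test over all 6. Nor did any other of the 16166 genes tested. In KO 1 each of the 9 was at its highest, and in WT 2 each was at its lowest. The 9 genes summed to 5423, 2455 and 2728 CPM in KO 1, KO 2 and KO 3 and to 2531, 1035 and 1436 CPM in WT 1, WT 2 and WT 3. KO 1 stood above all others, whereas the library labelled KO 2, KO 3 and WT 1 lay between 2455 and 2728 CPM, so the groups overlapped. In such tissue RNA, fewer cells of a type and less RNA per cell cannot be told apart.

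**Figure D1:**
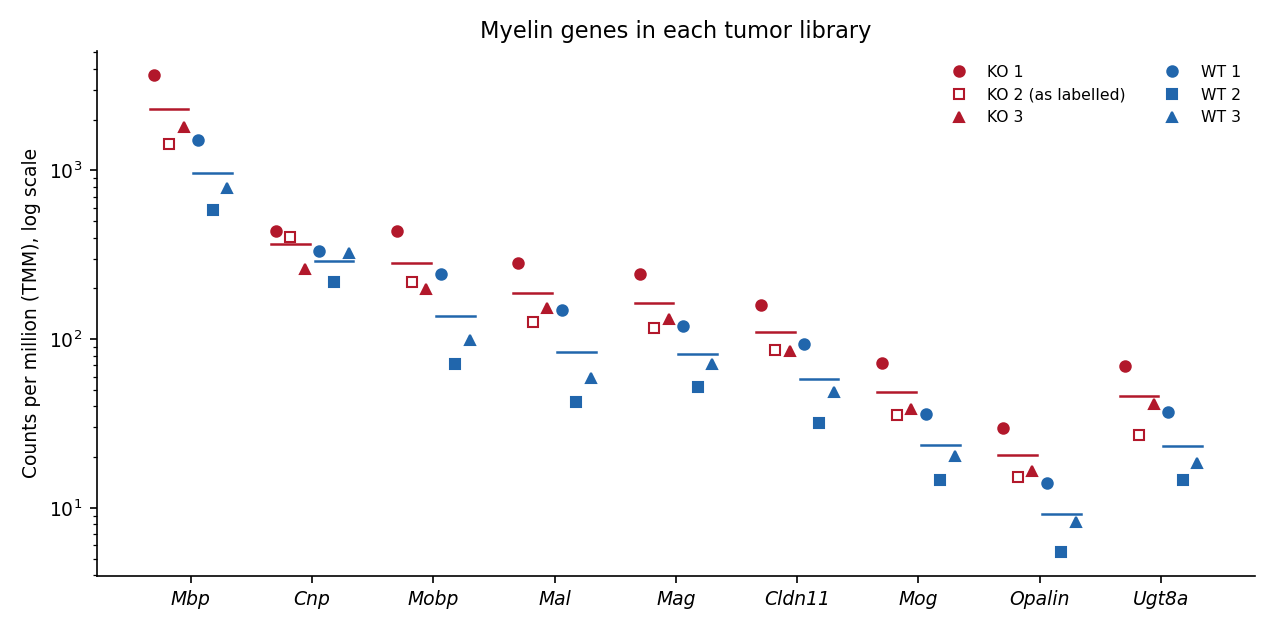
Level of each myelin gene in CPM on a log scale, with KO libraries in red, WT libraries in blue, the library labelled KO 2 as an open square, and a horizontal line at each group's mean. For 8 of the 9 genes the 6 libraries stand in nearly the same order, from KO 1 at the top to WT 2 at the bottom, while Cnp spans only 218 to 436 CPM.

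*Mbp* encodes myelin basic protein, which seals the cytoplasmic faces of the compact sheath, and lies on chromosome 18 (82475146 to 82585637, plus strand, GRCm38, GENCODE vM21). It was measured at 3693, 1425 and 1804 CPM in KO 1 to KO 3 and at 1507, 585 and 787 CPM in WT 1 to WT 3. KO 1 was far above the rest, and the library labelled KO 2 fell below WT 1. The log2 fold change was 1.27 ± 0.54 (SE) over all 6 libraries (adjusted p = 0.186, edgeR's quasi-likelihood test) and 1.53 ± 0.52 without the library labelled KO 2 (adjusted p = 0.0512). This was the highest fitted change of the 9 in both comparisons.

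*Mobp* encodes a small protein of the same cytoplasmic faces, on chromosome 9 (120149707 to 120181484, plus strand). It was measured at 436, 219 and 199 CPM in KO and 242, 70.9 and 99.3 CPM in WT libraries. Here WT 1 was above both KO 3 and the library labelled KO 2. The log2 fold change was 1.05 ± 0.55 over all 6 (adjusted p = 0.220, edgeR) and 1.22 ± 0.60 without the library labelled KO 2 (adjusted p = 0.130).

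*Cnp* encodes a phosphodiesterase of the uncompacted cytoplasmic channels and is switched on before most other myelin genes. It was measured at 436, 404 and 259 CPM in KO and 332, 218 and 324 CPM in WT libraries. The groups overlapped widely, and KO 3 was below both WT 1 and WT 3. Its log2 fold change was 0.33 ± 0.28 over all 6 (adjusted p = 0.393, edgeR) and 0.27 ± 0.31 without the library labelled KO 2 (adjusted p = 0.482), the lowest of the 9 in both.

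*Mal* and *Cldn11* serve the membrane itself, *Mal* as a lipid raft protein of myelin sorting and *Cldn11* as the claudin of the tight junctions between myelin layers. *Mal* (chromosome 2, 127633226 to 127656695, minus strand) was measured at 283, 127 and 153 CPM in KO and 149, 42.6 and 59.3 CPM in WT libraries. *Cldn11* (chromosome 3, 31149920 to 31164324, plus strand) was measured at 159, 86.8 and 85.1 CPM in KO and 94.1, 31.8 and 48.4 CPM in WT libraries. WT 1 was above the library labelled KO 2 for both genes and above KO 3 for *Cldn11* alone. Their log2 fold changes over all 6 libraries were 1.17 ± 0.55 and 0.93 ± 0.46 (adjusted p = 0.197 and 0.208, edgeR), and without the library labelled KO 2 they were 1.39 ± 0.58 and 1.08 ± 0.50 (adjusted p = 0.0851 and 0.113).

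*Mag*, *Mog* and *Opalin* encode surface proteins, *Mag* a sialic acid binding protein facing the axon, *Mog* an immunoglobulin protein of the outermost layer, and *Opalin* a glycoprotein of oligodendrocytes. *Mag* (chromosome 7, 30899176 to 30914873, minus strand) was measured at 244, 116 and 131 CPM in KO and 120, 52.2 and 71.0 CPM in WT libraries. *Mog* (chromosome 17, 37010743 to 37023398, minus strand) was measured at 72.3, 35.6 and 38.3 CPM in KO and 36.1, 14.6 and 20.3 CPM in WT libraries. For both genes WT 1 stood between the library labelled KO 2 and KO 3. Over all 6 libraries their log2 fold changes were 1.01 ± 0.42 and 1.04 ± 0.43 (adjusted p = 0.184 for each, edgeR), and without the library labelled KO 2 they were 1.22 ± 0.42 and 1.23 ± 0.45 (adjusted p = 0.0534 and 0.0597).

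*Opalin* (chromosome 19, 41061710 to 41077113, minus strand) was the only member whose groups did not overlap over all 6 libraries. It was measured at 29.7, 15.3 and 16.5 CPM in KO and 14.0, 5.50 and 8.24 CPM in WT libraries, with 104 to 523 reads. The gap between the library labelled KO 2 and WT 1 was small beside the difference between KO 1 and the other KO libraries. Its log2 fold change was 1.15 ± 0.43 over all 6 (adjusted p = 0.184, edgeR) and 1.33 ± 0.45 without the library labelled KO 2, at an adjusted p of 0.0499.

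*Ugt8a* encodes the enzyme that adds galactose to ceramide and so makes galactocerebroside, the main glycolipid of myelin. It lies on chromosome 3 (125865271 to 125938619, minus strand) and was measured at 69.2, 27.1 and 41.2 CPM in KO and 37.0, 14.6 and 18.5 CPM in WT libraries. The library labelled KO 2 was below WT 1 and KO 3 above it. The log2 fold change was 0.97 ± 0.48 over all 6 (adjusted p = 0.205, edgeR) and 1.25 ± 0.45 without the library labelled KO 2 (adjusted p = 0.0573).

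**Figure D2:**
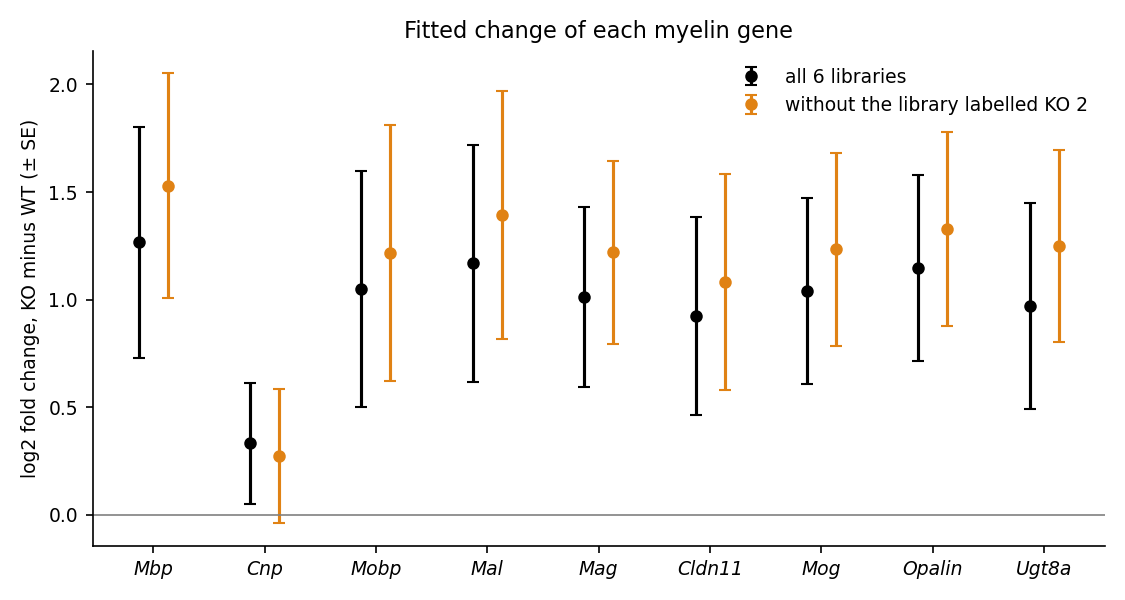
Fitted log2 fold change of each myelin gene (KO minus WT, ± SE), over all 6 libraries in black and without the library labelled KO 2 in orange. All 18 values are above 0, and Cnp is the lowest in both, at 0.33 and 0.27.

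Over all 6 libraries edgeR's quasi-likelihood test called 0 of the 9 members higher in KO at an adjusted p under 0.05, and it called 0 of 16166 genes tested (0.0%). At an unadjusted p under 0.05 it counted 1 of the 9 (*Opalin*), against 2462 of all genes (15.2%). All 3 KO libraries were above all 3 WT libraries for 1 of the 9, against 12.6% of all genes. These shares were near the background or below it, while the median log2 fold change was 1.04 for the members and -0.02 for all genes tested. DESeq2 and the exact test of edgeR, which called 757 (4.68%) and 107 (0.662%) genes higher in KO, also called 0 of the 9. Without KO 1 the members' median fell to 0.61.

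Without the library labelled KO 2, all 9 members were again above 0, with a median log2 fold change of 1.23 against -0.02 for all genes. *Opalin* alone was called higher, 1 of 9, where 24.5% of the 16279 genes tested were called higher and 28.3% lower. KO 1 and KO 3 were both above all WT libraries for 6 of the 9 (*Mbp*, *Mog*, *Mag*, *Mal*, *Opalin* and *Ugt8a*), against 37.2% of all genes. Other tests of the same 5 libraries called more of them, 3 of 9 by limma-voom (26.0% of all genes), 6 by DESeq2 (28.2%) and 8 by the exact test of edgeR (24.5%), the last leaving out only *Cnp*. The library WT 1 weighed on these calls, since leaving it out as well gave 8 of 9 (all but *Cnp*) and a median of 1.75, with 32.1% of all genes called higher. Leaving out KO 1, KO 3, WT 2 or WT 3 in its place gave 0 of 9, with a median of 0.71 without KO 1. The share of all genes called higher was 1.9% without KO 1, 0.0% without KO 3 and 15.2% without WT 2. Omitting WT 3 left the 4 libraries WT 1, WT 2, KO 1 and KO 3. There 2.87% of genes were called higher and the members' median was 1.12.

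The members kept similar proportions to each other while their levels differed 4.67-fold (*Mag*) to 6.64-fold (*Mal*) between KO 1 and WT 2, *Cnp* apart at 2.00-fold. *Mog*, the steadiest, made up 1.33 to 1.45% of the CPM of the 9 genes in every library, against 4.11 to 5.87% for *Mal*, 6.85 to 9.56% for *Mobp* and 1.10 to 1.51% for *Ugt8a*. The correlation of each gene's log2 CPM with the mean of the other 8, over the 6 libraries, was 0.97 to 1.00 for 8 members and 0.72 for *Cnp*, given as a description of libraries that share their scaling. *Cnp* took 8.05% and 9.51% of the summed CPM in KO 1 and KO 3, but 21.1% and 22.6% in WT 2 and WT 3. The library labelled KO 2 and WT 1 lay between, at 16.5% and 13.1%. *Mbp* ran the other way, with 68.1% and 66.1% in KO 1 and KO 3. Its share was 58.0% in the library labelled KO 2 and 54.8 to 59.5% in WT libraries. Both are shares of the same sum, so a lower share of *Cnp* by itself raises that of *Mbp*.

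**Figure D3:**
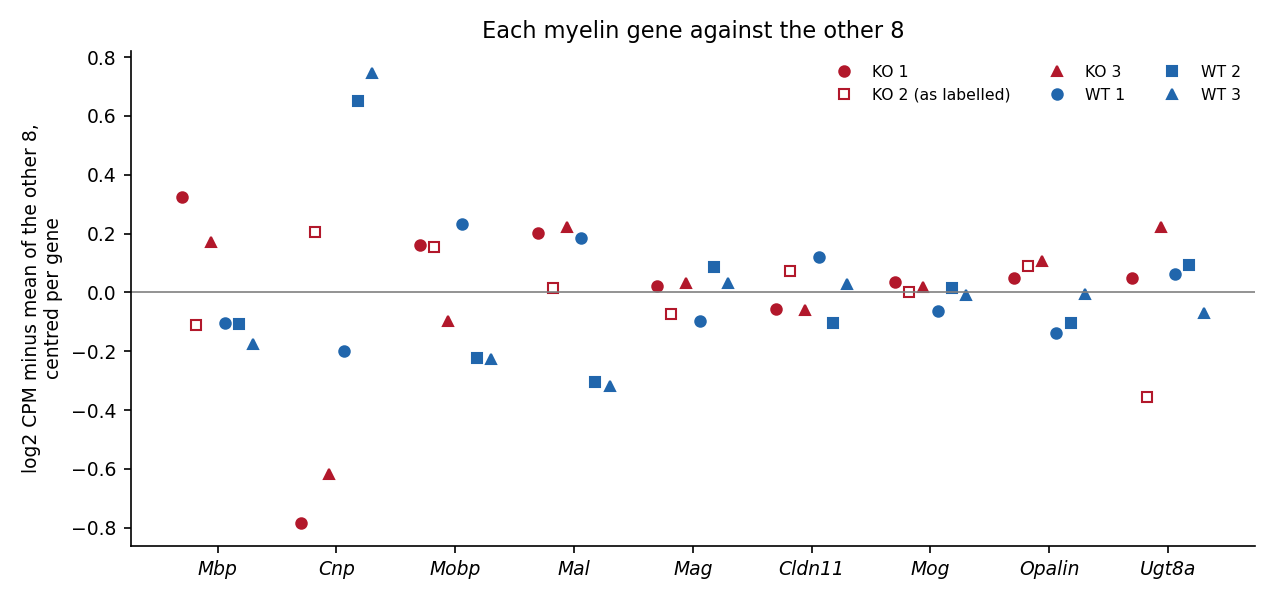
Deviation of each myelin gene's log2 CPM from the mean of the other 8, centred per gene, in each library (KO red, WT blue, the library labelled KO 2 open). Mog stays within 0.06 of 0, whereas Cnp runs from -0.78 in KO 1 to 0.75 in WT 3.

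Exons of *Cnp* (chromosome 11, 100574904 to 100591729, plus strand) overlap those of *Dnajc7*, a cochaperone gene on the opposite strand. Whether reads were counted by strand is not given in the sources used here, so reads of the overlap cannot be assigned to either gene. *Dnajc7* was measured at 180 to 196 CPM in KO and 195 to 224 CPM in WT libraries, a log2 fold change of -0.14 ± 0.14 over all 6 (adjusted p = 0.456, edgeR). What part it had in the count of *Cnp* was not tested. Exons of *Mobp* overlap those of *Gm38642*, a transcript of the same strand for which no counts were given.

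The genes most like the members over the 6 libraries were *5830432E09Rik*, *Bhlhe41*, *AI317395*, *Slc44a1* and *Rhbdl3*, with correlations of 0.99 to 1.00 with the members' mean log2 CPM. Of 16157 other genes compared, 166 (1.03%) had a correlation above 0.95. Over all 6 libraries the log2 fold changes of these 5 were 0.39 to 0.84, and 0 were called. *Slc44a1*, a choline transporter, was at 93.8, 67.4 and 67.9 CPM in KO and 71.7, 42.7 and 53.7 CPM in WT libraries. *AI317395* had 5 to 18 reads per library.

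The other 38 genes of mature oligodendrocytes were more mixed than the members. Over all 6 libraries 30 of them were above 0 and 8 below, with a median log2 fold change of 0.64, and edgeR called 0 of 38. Without KO 1 the median was 0.31. Without the library labelled KO 2, 11 of 38 rose (28.95%) and 4 fell (10.5%), with a median of 0.76. Beside this count and those of the lists below stand 24.5% of all genes called higher and 28.3% called lower. *Tppp*, a tubulin polymerizing protein, was the highest in both comparisons (1.38 ± 0.57, adjusted p = 0.184, and 1.73 ± 0.50, adjusted p = 0.0315). It was at 658, 273 and 820 CPM in KO and 374, 116 and 182 CPM in WT libraries. KO 3 was thus its highest library, as for the neuron sum below, and not KO 1 as for the members. The 4 that fell were *Gjc3*, *Cd9*, *Cnksr3* and *Dock10*, named after their values were seen. *Cd9*, a tetraspanin that precursors and other cells also use, was at 60.4, 178 and 35.5 CPM in KO and 147, 166 and 191 CPM in WT libraries. Its libraries thus ran against those of the myelin genes, with KO 1 and KO 3 lowest and the library labelled KO 2 among the WT values. Dropping a second library beside the one labelled KO 2 moved the count of 11 to 21 (WT 1), 5 (WT 2) or 0 (KO 1, KO 3 or WT 3). The shares of all genes called higher were then 32.1%, 15.2%, 1.9%, 0.0% and 2.87%, in that order.

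Of 16 genes of lipid metabolism listed beside *Ugt8a*, 4 were called higher and 2 lower without the library labelled KO 2. These were 25% and 12.5% of the list, against 24.5% and 28.3% of all genes. Over all 6 libraries 0 of 16 were called. The median log2 fold changes were 0.36 without that library and 0.30 over all 6. *Aspa*, which frees acetate for lipid synthesis in oligodendrocytes, was the highest over all 6 libraries, at 29.0, 13.4 and 16.6 CPM in KO and 14.3, 5.71 and 6.65 CPM in WT (log2 fold change 1.14 ± 0.47, adjusted p = 0.184, edgeR). *Cers2*, a ceramide synthase of very long chains, was the lowest, at 78.2, 102 and 51.1 CPM in KO and 105, 144 and 126 CPM in WT. Its log2 fold change was -0.70 ± 0.28 over all 6 (adjusted p = 0.184) and -0.93 ± 0.23 without the library labelled KO 2 (adjusted p = 0.0225). *Gal3st1*, chosen for its role because it sulfates the product of *Ugt8a*, was at 11.5 to 15.8 CPM in KO and 5.55 to 9.23 CPM in WT, with all KO libraries above all WT libraries. *Galc*, chosen because it breaks that product down, was at 37.9 to 42.1 CPM in KO and 38.4 to 41.8 CPM in WT libraries.

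The transcription factors of the lineage split into those that went with the myelin genes and those that did not. *Myrf*, the activator of myelin genes in mature cells, was at 93.6, 52.3 and 54.7 CPM in KO and 57.9, 23.4 and 37.3 CPM in WT libraries, in which KO 1 was again highest and WT 2 lowest. *Sox10* (64.7, 55.6 and 40.3 against 58.9, 25.5 and 35.2 CPM) and *Nkx6-2* (28.5, 17.6 and 18.2 against 20.6, 10.4 and 10.5 CPM) had the same highest and lowest libraries. None of these 3 passed the test in either comparison, with log2 fold changes of 0.92 ± 0.42, 0.41 ± 0.40 and 0.76 ± 0.38 without the library labelled KO 2 (adjusted p = 0.110, 0.410 and 0.138, edgeR). *Olig2*, which marks the whole lineage and many gliomas, was at 57.1, 318 and 30.4 CPM in KO and 229, 321 and 284 CPM in WT libraries. KO 1 and KO 3 were far below, and the library labelled KO 2 was at the level of WT 2.

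Without that library *Olig2* fell, with a log2 fold change of -2.65 ± 0.33 (adjusted p = 0.00798), as did *Olig1* at -1.95 ± 0.30 (adjusted p = 0.00882) and *Nkx2-2* at -2.05 ± 0.34 (adjusted p = 0.0101, edgeR), whereas over all 6 their adjusted p was 0.346 to 0.441. In all, 3 of the 16 factors rose and 8 fell without the library labelled KO 2, and 0 were called over all 6, where *Zfp536* (1.07 ± 0.27) was the highest and *Sox9* (-1.23 ± 0.28) the lowest (adjusted p = 0.184 for each).

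Genes of earlier stages of the lineage were at their lowest sums in KO 1 and KO 3. The 17 precursor genes summed to 1702, 4163 and 1485 CPM in KO and 3379, 4335 and 4271 CPM in WT libraries. KO 1 and KO 3 were the lowest, and the library labelled KO 2 was within the WT range. Without it, 10 of 17 fell and 2 rose, with a median log2 fold change of -1.13, and over all 6 the median was -0.43 with 0 called. *Lhfpl3* was the lowest over all 6 (-1.31 ± 0.64, adjusted p = 0.204, edgeR) and *Emid1* the highest (1.24 ± 0.35, adjusted p = 0.184). Of 13 committed and newly formed oligodendrocyte genes, 6 fell and 2 rose without the library labelled KO 2 (median -0.69), and 0 were called over all 6 (median -0.26), where *Mpzl1* was the lowest (-1.01) and *Tmem163* the highest (1.29). The 9 myelin genes amounted to 319% and 184% of the precursor sum in KO 1 and KO 3, to 59.0% in the library labelled KO 2 and to 23.9 to 74.9% in WT libraries.

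**Figure D4:**
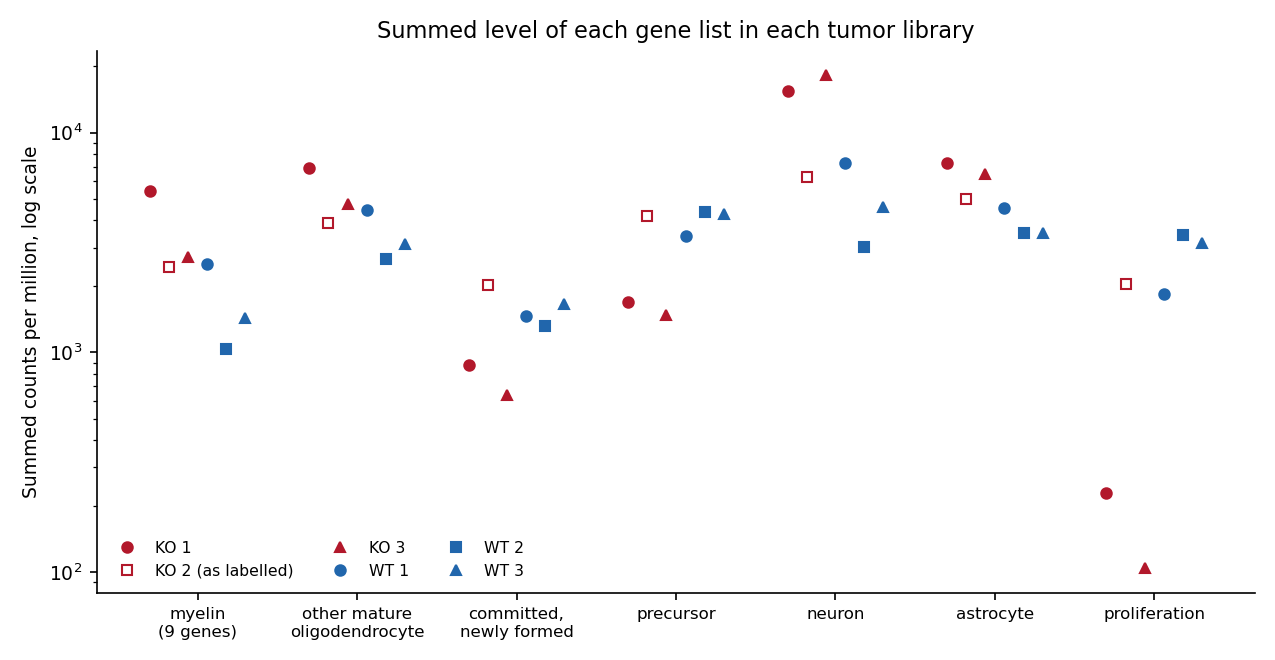
Summed CPM of each gene list in each library on a log scale (KO red, WT blue, the library labelled KO 2 open). KO 1 and KO 3 are lowest for precursor, committed and proliferation genes, while the myelin genes put KO 1 alone at the top, at 5423 CPM against 2728 CPM in KO 3.

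Genes of the axonal side of the sheath, which neurons and glia supply, were mostly higher. Of 18 such genes, 16 rose and 0 fell without the library labelled KO 2, with a median log2 fold change of 1.43, and 0 were called over all 6 (median 1.13). *Cntnap1* (Caspr of the paranode), chosen for its role, was at 339, 142 and 313 CPM in KO and 169, 82.3 and 113 CPM in WT libraries. *Rtn4r*, the receptor on axons for Nogo and myelin inhibitors such as *Mag*, was the highest over all 6 (1.69 ± 0.68, adjusted p = 0.184, edgeR), and *Cntn1* the lowest (-0.38 ± 0.21, adjusted p = 0.241). Peripheral myelin was a minor part. Its 7 genes summed to 127 to 182 CPM in KO and 115 to 136 CPM in WT libraries, with 1 called in each direction without the library labelled KO 2 and 0 over all 6, from *Pmp22* (-0.52) to *Gldn* (1.38).

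The summed level of neuron markers varied alongside the myelin genes, apart from KO 3. The 16 neuron genes summed to 15391, 6257 and 18215 CPM in KO and 7257, 3031 and 4600 CPM in WT libraries, and 15 of 16 rose without the library labelled KO 2 (median log2 fold change 1.81, against 1.43 with 0 called over all 6). *Camk2a*, a kinase of excitatory neurons, was at 3729, 1726 and 4424 CPM in KO and 1419, 589 and 1072 CPM in WT. *Snap25*, of synaptic vesicle release, was at 2645, 720 and 3124 CPM in KO and 1079, 263 and 623 CPM in WT. The sum of the 9 myelin genes was 31.2 to 39.2% of the neuron sum in 5 of the 6 libraries and 14.98% in KO 3. KO 3 thus held the highest neuron sum but only about the myelin level of WT 1. The 11 astrocyte genes summed to 4968 to 7273 CPM in KO and 3481 to 4543 CPM in WT, with 6 higher and 1 lower without the library labelled KO 2 (median 0.95) and 0 called over all 6 (median 0.82). Without *Slc1a2* the astrocyte sum was 3149, 3049 and 2770 CPM in KO and 3181, 2916 and 2678 CPM in WT. This remaining sum still holds *Gfap*, which ran against most of the list. For 8 of the 11 genes all KO libraries were above all WT libraries, against 12.6% of all genes. For 1, *Gfap*, all were below, against 2397 of 16166 genes. *Slc1a2* was at 1918 to 4124 CPM in KO and 565 to 1362 CPM in WT, and *Slc1a3* at 754 to 815 and 705 to 906 CPM. *Gfap*, the 1 astrocyte gene that fell, named after its values were seen, was at 246, 815 and 223 CPM in KO and 1081, 1169 and 1123 CPM in WT libraries.

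The 20 proliferation genes ran the other way. They summed to 228, 2041 and 104 CPM in KO and 1853, 3436 and 3158 CPM in WT libraries, and 20 of 20 fell without the library labelled KO 2 (median log2 fold change -4.18, against -1.80 with 0 called over all 6). *Top2a* was at 38.6, 521 and 3.06 CPM in KO and 475, 953 and 861 CPM in WT, and *Mki67* at 31.9, 342 and 4.15 CPM in KO and 317, 488 and 507 CPM in WT. The 13 microglia and macrophage genes summed to 683 to 1506 CPM in KO and 1111 to 1177 CPM in WT, with 7 lower and 1 higher without the library labelled KO 2 and 0 over all 6. *C1qa* was at 61.8 to 323 CPM in KO and 209 to 245 CPM in WT. The 11 endothelial genes summed to 248 to 338 CPM in KO and 265 to 322 CPM in WT, with 3 higher and 1 lower without the library labelled KO 2 and 0 over all 6. *Podxl* was at 36.7 to 50.6 CPM in KO and 59.0 to 67.3 CPM in WT, and *Cldn5* at 29.4 to 43.1 and 32.7 to 54.8 CPM. No gene of these lists was at 0 in any library. The part that the share of neurons, other brain cells or dividing cells in the sampled tissue had in the levels of the myelin genes was not tested.

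**Figure D5:**
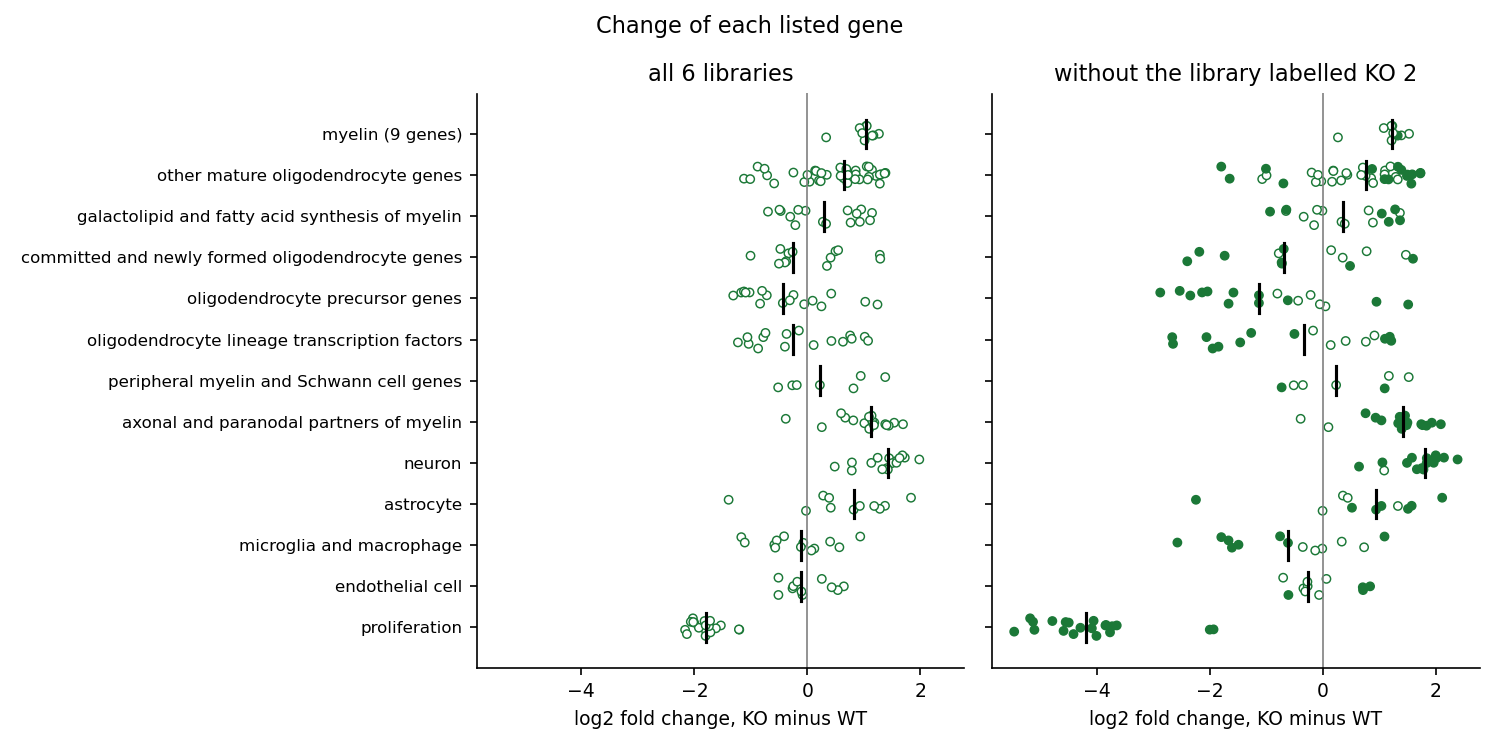
Log2 fold change (KO minus WT) of each gene of each list, over all 6 libraries (left) and without the library labelled KO 2 (right), with filled points called at an adjusted p under 0.05 and a black bar at each list's median. The 9 myelin genes lie to the right of 0 in both panels, between the medians of the precursor genes (-0.43 and -1.13) and of the neuron genes (1.43 and 1.81).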

How the data were processed

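RNA-seq counts were analysed for 6 libraries of frozen mouse tumor tissue, grouped by their labels. The authors deposited raw counts per gene, together with FPKM and with a normalized count signal in which counts are scaled by nearly the same factor for all genes of a library. No gene in it has counts in fewer than 4 libraries or a maximum under 5. Per the labels, RNA was extracted with TRIzol, libraries were made with the NEBNext Ultra kit, and the submitters' processing notes name CASAVA 1.8.2, edgeR and mm10, whereas the methods of the study name the Ovation Ultralow kit, HTSeq and hg38, and its reporting summary STAR. The table also holds 3 columns of the authors' own comparison (fold change, p-value and false discovery rate), which were not used. The deposited signal was not used for any result.

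The model was fitted to counts with edgeR 4.0.16 in R 4.3.3 (filterByExpr with minimum count 10 and minimum total 15, TMM, quasi-likelihood F test, no covariates, Benjamini-Hochberg adjustment over all genes tested), and genes were called at an adjusted p under 0.05. SE is the log2 fold change over the square root of F. Log2 CPM for correlations used a prior count of 2. A count of 0 allows up to 3 reads, or 0.132 to 0.170 CPM, counting error only. Alternatives were other scalings, no filter, each library left out, 4 libraries, a replicate block, a fold change above 4, DESeq2 1.42.0, the exact test and limma-voom (limma 3.58.1). Those that combine the omission of KO 2 with another test, library or the fold rule were added after seeing the data. The code of the fits was tried on simulated counts with the same fixed spread for every gene. That spread was not taken from these libraries, so the trial does not measure the power of the tests here. The members and the 12 other gene lists, of which 6 genes are not in the table, were chosen with earlier results of these data known. Genes were named by rule: all members, *Esm1* and 6 lineage factors, the extremes of each pathway list over all 6 libraries, the 2 most abundant markers of each other cell type, and the 5 genes most correlated with the members, besides genes marked as chosen for their role or after their values were seen; some genes that the rule names are not reported here. Positions came from GENCODE vM21 (GRCm38), matched by symbol for all 9 members. Python 3.11.15 with pandas 2.3.3 and matplotlib 3.10.9 was used for summaries and plots.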

Additional observations from a re-analysis of the deposited data

How the results depend on the processing

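The members' direction held in 22 alternative fits for 8 of the 9 genes, and for *Cnp* in 21 of 22, since without both KO 1 and the library labelled KO 2 its log2 fold change was -0.15 (up to 0.60 with other libraries left out). With libraries left out, alone or beside KO 2, 0 to 8 of the 9 members were called higher and their median log2 fold change was 0.61 to 1.75, and 0 to 21 of the other 38 mature oligodendrocyte genes were called higher with a median of 0.30 to 1.11. Without KO 2, DESeq2 called 6 members and 18 of the other genes (28.2% of all genes), limma-voom 3 and 13 (26.0%), and the exact test 8 and 18 (24.5%). Over all 6 libraries DESeq2 called 757 genes higher and 425 lower and the exact test 107 and 81, against 0 and 0 by the quasi-likelihood test and limma-voom, and each called 0 members. A fold change above 4 left 0 members, with or without KO 2. Scaling by total counts moved the median of all genes from -0.02 to -0.17 and that of the members from 1.04 to 0.88. The replicate numbers do not mark a shared animal or day in the labels, and deviations from the group means correlated at 0.55, 0.59 and -0.21 for the 3 numbers. With the replicate number as a block, 0 members were called and their median was 1.07. Over all 6 libraries the SE of the members' changes was 0.28 to 0.55, beside a median change of 1.04. With at least 104 reads per member, depth limits the members little, whereas *AI317395* had 5 to 18 reads.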
